A study of Homo sapiens with 6 samples.

Results

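The annexins were compared between A549-TIPARP and A549-GFP cells, 2 derivatives of the lung adenocarcinoma line A549, which is of human origin. The A549-TIPARP line stably overexpressed TIPARP, a mono-ADP-ribosyltransferase induced through the aryl hydrocarbon receptor, from a retroviral pMXs vector, and A549-GFP cells carried GFP in the same vector. RNA was sequenced from 3 libraries of each line, numbered by experiment. Whether a line was a pool of transduced cells or a clone, and whether the experiments were separate cultures, is not given in the sources used here, so the spread between libraries may be technical. The 10 members, ANXA1, ANXA2, ANXA3, ANXA4, ANXA5, ANXA6, ANXA7, ANXA9, ANXA10 and ANXA11, were selected by gene symbol from the 53826 gene entries of the deposited tables, with the comparison of the lines already known. Their differences between the lines are therefore given as a description. All 10 were among the 13181 genes with more than 2 TPM (a length-corrected share of the transcripts of a library) in at least 1 of the 6 libraries, and ANXA10 was kept through A549-GFP replicate 2 alone.

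Annexins are proteins that bind acidic phospholipids, such as phosphatidylserine, when calcium rises. A conserved core of repeats carries the calcium sites, and a variable N-terminal tail sets the partners, among them S100 proteins. They are known for organising membranes during exocytosis and endocytosis and for sealing wounds of the plasma membrane, and in lung epithelium they are also known for work in surfactant secretion and in restraint of inflammation. By GENCODE release 44 on hg38, the canonical transcripts of 9 of the members have from 12 to 16 exons and encode from 320 to 505 residues, while ANXA6, which carries an extended core, has 26 exons and 673 residues.

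The sequences of ANXA2 and of its processed pseudogene ANXA2P2 are shown because the stretches they share bear on how the ANXA2 values can be read. In hg38, ANXA2P2 spans chromosome 9 from 33624274 to 33625293 (plus strand), and it matched all 1020 bases of the ANXA2 coding sequence with 16 mismatches and no gap, an identity of 98.4%. The stretch of 60 bases with the most mismatches held 5 of them, at chr9:33624434-33624493 in ANXA2P2 and at coding bases 161 to 220 of ANXA2. Capitals mark the bases that differ.
ANXA2: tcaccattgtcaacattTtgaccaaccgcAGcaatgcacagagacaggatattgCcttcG
ANXA2P2: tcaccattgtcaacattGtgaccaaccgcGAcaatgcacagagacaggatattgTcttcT
The longest run without a difference was 221 bases, and 4 runs reached 100 bases. ANXA2P1 and ANXA2P3 were less alike, with 93.6% and 91.2% identity over the aligned part. How the authors treated reads that match more than 1 of these entries is not given in the sources used here, so the levels of ANXA2 and of ANXA2P2 are uncertain in how they divide shared reads.

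The libraries were checked before the annexins were read. TIPARP itself ranged from 3.68 to 11.4 TPM with GFP and from 90.5 to 131 TPM with TIPARP overexpressed, and its adjusted p-value by limma was 0.0125. The adjusted p-value was above 0.05, at up to 0.192, when any library but A549-GFP replicate 2 was left out, and 0.0965 with no filter on low genes. Of the 10 epithelial and A549 markers, 9 were above 60 TPM in every library. The exception was the simple-epithelium keratin KRT19, at 4.57, 2.54 and 5.36 TPM in the A549-GFP replicates 1, 2 and 3 and at 19.2, 19.0 and 10.9 TPM in those of A549-TIPARP, with all A549-TIPARP libraries above (log2 fold change 1.75, limma adjusted p = 0.283, unadjusted p under 0.05). The endothelial markers PECAM1, CDH5, VWF, KDR and TEK were at the floor of the tables in all 6 libraries, as were the leukocyte markers PTPRC and CD3E and the fibroblast markers COL1A2, COL3A1, THY1 and PDGFRB. The other 2 of the 6 fibroblast markers were close to the floor, LUM at no more than 1.09 TPM and COL1A1 at no more than 1.44 TPM with GFP and from 1.64 to 2.56 TPM with TIPARP, so all A549-TIPARP libraries were above all A549-GFP libraries for COL1A1 (log2 fold change 0.42, limma adjusted p = 0.994). AKR1B10, an A549 marker, went the other way, with 7637, 5621 and 6749 TPM in A549-GFP and 5397, 5539 and 4938 TPM in A549-TIPARP libraries, all of the latter below (log2 fold change -0.32, limma adjusted p = 0.994). What these 3 markers mean for the annexin values was not tested. A549-GFP replicate 2 stood apart. Over all tested genes it deviated from the mean of its line by 0.621 on the log2 scale (root mean square), against 0.185 to 0.400 in the other libraries. The summed level of the 10 epithelial and A549 markers was 23932 TPM in that library and from 35497 to 39557 TPM in the others. KRT8 and KRT18, the most abundant by mean TPM, were at 42.7% and 38.1% of the geometric mean of A549-GFP replicates 1 and 3. KRT7, CDH1 and AKR1C1 went the other way, at 114%, 209% and 143%, and the remaining markers were lower. The summed level of the leukocyte markers CD68 and LYZ was 74.1 TPM in that library and from 30.7 to 42.9 TPM in the others. The part of these shifts in the annexin values was not tested. For this reason each annexin is also given without A549-GFP replicate 2.

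The annexins covered a wide range of levels, led by ANXA2 and ANXA1. Here and for each gene, the libraries of a line are listed in the order of replicates 1, 2 and 3. The 10 genes together took 6057, 3070.5 and 5567 TPM with GFP and 6960.1, 6998 and 5543 TPM with TIPARP. In bulk RNA, fewer cells with a transcript and less of it per cell cannot be told apart. ANXA2 and ANXA1 made up 78.9% ± 5.1 (SD, n = 6) of that sum, and they ranked first and second among the 10 in every library. In the order of their mean log2 TPM, they were followed by ANXA5, ANXA4, ANXA11, ANXA7, ANXA3, ANXA6, ANXA9 and ANXA10. ANXA5 and ANXA4 were close neighbours, with ANXA5 higher in 4 of 6 libraries, and ANXA7 was above ANXA3 in the 3 A549-GFP libraries and below it in the 3 A549-TIPARP libraries. ANXA11 was above ANXA7, and ANXA6 above ANXA9, in 5 of 6 libraries, with the exception of A549-GFP replicate 2 in each case. Between the other neighbours the order was the same in all 6 libraries.

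**Figure D1:**
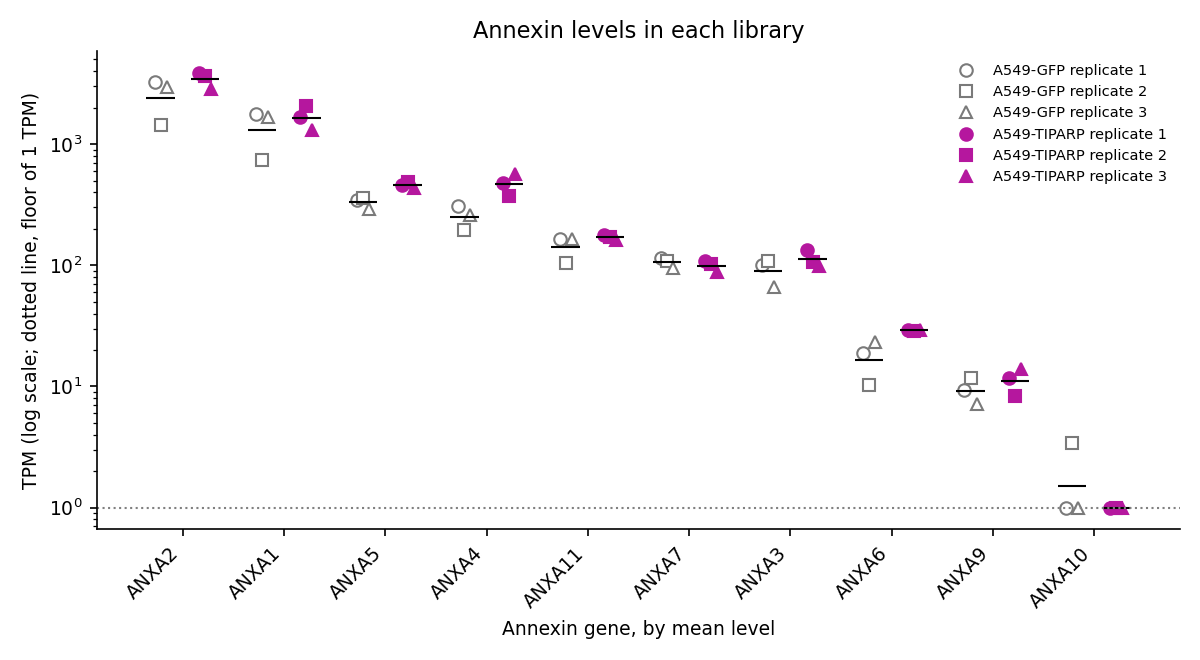
TPM of the 10 annexins (log axis) in each library, A549-GFP in open grey and A549-TIPARP in filled magenta symbols, with a symbol shape for each replicate number and a bar at the geometric mean of the line (n = 3). ANXA2 and ANXA1 lie at the top, the A549-TIPARP libraries lie above the A549-GFP libraries for ANXA4, ANXA5 and ANXA6, and A549-GFP replicate 2 (open squares) lies lowest for ANXA1 and ANXA2.

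Of the 9 annexins above the floor in every library, 8 had a higher mean log2 TPM in A549-TIPARP cells and ANXA7 had a lower one. ANXA10 passed the filter through 1 A549-GFP library, so its lower mean was fixed by the filter. The median difference was 0.34 on the log2 scale for the 9 and 0.33 for all 10, against -0.07 over all 13181 genes, of which 40.1% had a higher mean. Without A549-GFP replicate 2, 7 of the 9 had a higher mean, and the medians were 0.43 for the 9, 0.29 for all 10 and 0.05 over all genes. None of the 10 had an adjusted p-value under 0.05 by limma on log2(TPM + 1), where 0.0152% of all genes had one. ANXA4, ANXA5 and ANXA6 had an unadjusted p-value under 0.05 with a higher mean, as did 2.97% of all genes. All 3 A549-TIPARP libraries were above all 3 A549-GFP libraries for the same 3 annexins and for 5.36% of all genes, and the reverse held for none of the annexins and for 3.54% of all genes. No annexin was past 2-fold, against 1.96% of all genes. ANXA4 and ANXA6 were past 1.5-fold, as was ANXA10 through A549-GFP replicate 2, against 8.72% of all genes. With A549-TIPARP replicate 1 or 2 left out, 1 annexin, ANXA4, was under an unadjusted p-value of 0.05, where 1.92% and 2.99% of all genes were under it in either direction, and ANXA4 was under it whichever library was left out. ANXA6 was no longer under it without A549-TIPARP replicate 3 or after median-ratio rescaling of the libraries.

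ANXA4, ANXA5 and ANXA6 bind membranes directly and are known for roles in membrane organisation and repair. ANXA4, an annexin typical of secretory and absorptive epithelia, lies on chromosome 2 from 69644425 to 69827112 on the plus strand. It measured 308, 196 and 262 TPM with GFP and 475, 371 and 567 TPM with TIPARP. Every A549-TIPARP library was thus above every A549-GFP library, and the spread within each line was of similar size. The mean log2 TPM was 7.97 ± 0.33 (SD, n = 3) in A549-GFP cells and 8.86 ± 0.31 (SD, n = 3) in A549-TIPARP cells, a 1.85-fold difference. The log2 fold change from limma was 0.89 (95% interval 0.37 to 1.40, limma adjusted p = 0.690). ANXA4 was 1.64-fold higher when A549-GFP replicate 2 was left out.

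ANXA5, the annexin used as a probe for phosphatidylserine on dying cells, lies on chromosome 4 from 121667946 to 121696995 on the minus strand. It measured 347, 359.7 and 291 TPM with GFP and 462, 485 and 436 TPM with TIPARP. The lines did not overlap, and A549-GFP replicate 2 was not lower than the rest of its line. The means were 8.37 ± 0.16 and 8.85 ± 0.08 in log2 TPM (SD, n = 3 each), a 1.39-fold difference, with a log2 fold change of 0.47 (95% interval 0.12 to 0.83, limma adjusted p = 0.966). Without A549-GFP replicate 2 it was 1.45-fold higher.

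ANXA6, known for binding endosomes and the plasma membrane and for a part in cholesterol traffic, lies on chromosome 5 from 151100706 to 151157815 on the minus strand. It measured 18.9, 10.3 and 23.2 TPM with GFP and 29.2, 28.8 and 29.1 TPM with TIPARP. The A549-TIPARP libraries were nearly equal, and the A549-GFP libraries were lower and spread out, with replicate 2 the lowest. The means were 4.05 ± 0.61 and 4.86 ± 0.01 in log2 TPM (SD, n = 3 each), a 1.75-fold difference. The log2 fold change on log2(TPM + 1) was 0.77 (95% interval 0.12 to 1.42, limma adjusted p = 0.994). Leaving out A549-GFP replicate 2 brought it from 0.77 to 0.45.

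**Figure D2:**
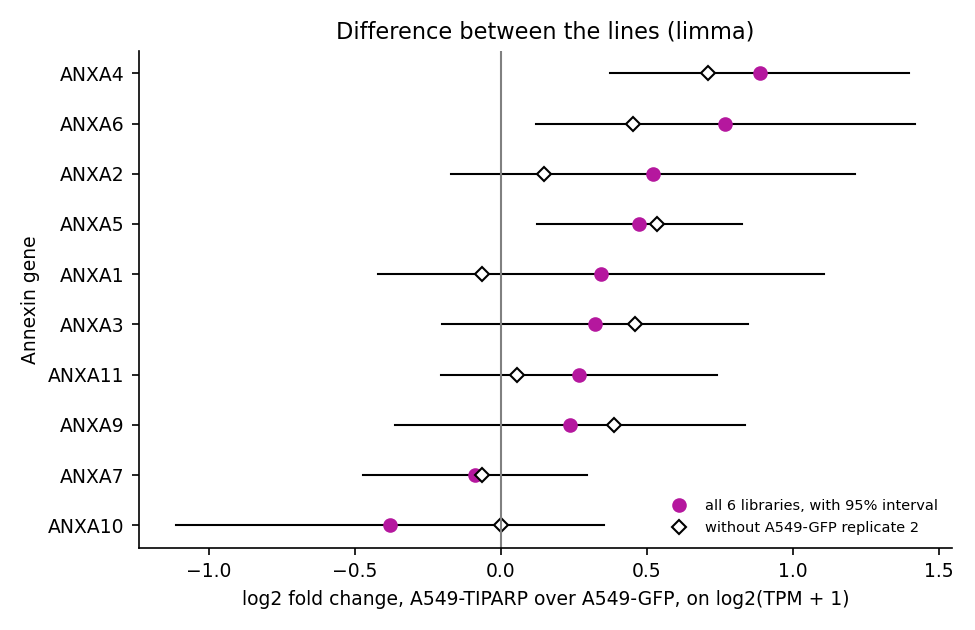
Log2 fold change of each annexin, A549-TIPARP over A549-GFP on log2(TPM + 1), from limma with its 95% interval (filled circles and lines, 3 libraries per line) and without A549-GFP replicate 2 (open diamonds). The intervals of ANXA4, ANXA5 and ANXA6 lie above 0, and the diamonds of ANXA1 and ANXA11 lie at -0.063 and 0.05.

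ANXA2 and ANXA1, the members with well-known S100 partners and surface roles, stood lower in A549-GFP replicate 2, relative to the rest of its line, than the other annexins did. ANXA2, which forms a complex with S100A10 that assembles plasminogen and its activator at the cell surface, lies on chromosome 15 from 60347134 to 60402883 on the minus strand. It measured 3228, 1425 and 2979 TPM with GFP and 3896, 3651 and 2849 TPM with TIPARP. A549-TIPARP replicate 3 was below A549-GFP replicates 1 and 3, so the lines overlapped, and A549-GFP replicate 2 was at 46.0% of the geometric mean of A549-GFP replicates 1 and 3. ANXA2 was 1.44-fold higher by the means of the lines (log2 fold change 0.52, 95% interval -0.17 to 1.21, limma adjusted p = 0.994), and 1.11-fold higher without that library.

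ANXA1, a glucocorticoid-induced annexin that acts on formyl peptide receptors and restrains cytosolic phospholipase A2, lies on chromosome 9 from 73151865 to 73170393 on the plus strand. It measured 1767, 742 and 1681 TPM with GFP and 1665, 2071 and 1301 TPM with TIPARP. The lines overlapped, and A549-GFP replicate 2 was at 43.1% of the geometric mean of the other A549-GFP libraries. The log2 fold change was 0.34 (95% interval -0.42 to 1.11, limma adjusted p = 0.994), and without A549-GFP replicate 2 it was -0.063. A549-GFP replicate 2 had the lowest value of all 6 libraries for ANXA1, ANXA2, ANXA4, ANXA6 and ANXA11, 5 of the 10 annexins, where it had the lowest value for 13.1% of all genes and the highest for 52.0%.

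ANXA7 and ANXA11, which share long glycine- and proline-rich tails that bind the EF-hand proteins PDCD6 and SRI (sorcin), lie on chromosome 10, from 73375101 to 73414076 and from 80150889 to 80205572, both on the minus strand. ANXA7 measured 114, 109 and 94.7 TPM with GFP and 108, 102 and 88.7 TPM with TIPARP. Its log2 fold change was -0.09, with a 95% interval of -0.47 to 0.29 (limma adjusted p = 0.994), and the lines overlapped. By the mean log2 TPM the difference was -0.07 without A549-GFP replicate 2. ANXA11, which also tethers RNA granules to lysosomes, measured 164, 105 and 164 TPM with GFP and 179, 172 and 161 TPM with TIPARP. A549-GFP replicate 2 was lower than all others, and the log2 fold change of 0.27 (95% interval -0.20 to 0.74) was 0.05 without it.

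ANXA3, ANXA9 and ANXA10 were the remaining annexins. ANXA3, known from neutrophils and from epithelial tumours, lies on chromosome 4 from 78551747 to 78610451 on the plus strand. It measured 101, 108 and 65.6 TPM with GFP and 133, 107 and 98.2 TPM with TIPARP, with a log2 fold change of 0.32 (95% interval -0.20 to 0.85). It was 0.46 without A549-GFP replicate 2, 0.10 without A549-GFP replicate 3 and 0.20 without A549-TIPARP replicate 1. ANXA9, an unusual annexin whose core has lost the calcium sites, lies on chromosome 1 from 150982249 to 150995634 on the plus strand. It was low and measured 9.39, 11.7 and 7.23 TPM with GFP and 11.7, 8.40 and 13.8 TPM with TIPARP. Its log2 fold change was 0.24 (95% interval -0.36 to 0.83), and it was 0.39 without A549-GFP replicate 2, 0.07 without A549-GFP replicate 3, 0.42 without A549-TIPARP replicate 2 and 0.09 without A549-TIPARP replicate 3. Both genes overlapped between the lines. ANXA10, known from gastric epithelium, lies on chromosome 4 from 168092537 to 168187736 on the plus strand. It was listed at the floor of 1 TPM in 5 libraries and had 3.40 TPM in A549-GFP replicate 2. Any fold of ANXA10 rests on that value alone.

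Among the S100 and EF-hand partners, S100A10, like ANXA2, was lowest in A549-GFP replicate 2, at 52.0% of the geometric mean of A549-GFP replicates 1 and 3. It measured 1697, 905 and 1785 TPM with GFP and 2134, 1824 and 1419.6 TPM with TIPARP. Per TPM of ANXA2 it stood at 0.59 ± 0.06 in A549-GFP cells and at 0.52 ± 0.03 in A549-TIPARP cells (SD, n = 3 each), with A549-GFP replicate 2 the highest at 0.635. The pseudogene entry ANXA2P2 followed ANXA2 more closely, at 6.13%, 6.43% and 5.97% of its TPM with GFP and at 6.09%, 6.24% and 6.08% with TIPARP. Its TPM ran from 91.6 to 237 over the 6 libraries, while its share of ANXA2 moved only between 5.97% and 6.43%.

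**Figure D3:**
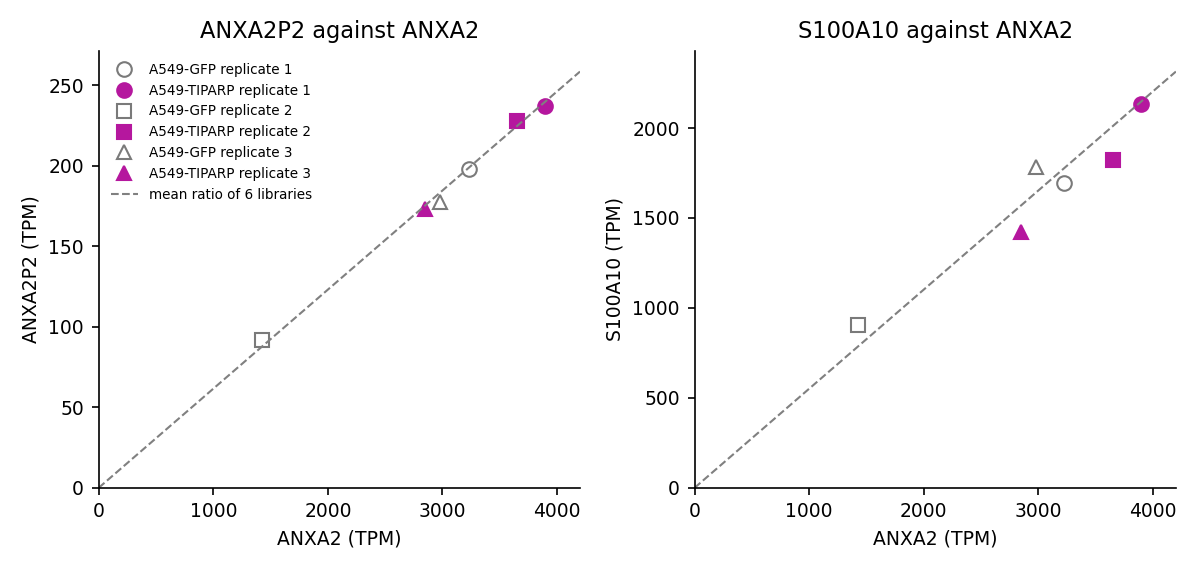
TPM of ANXA2P2 (left) and of S100A10 (right) against TPM of ANXA2 in the 6 libraries, A549-GFP in open grey and A549-TIPARP in filled magenta symbols, with the mean ratio of the libraries as a dashed line. ANXA2P2 stays on the line, at 5.97% to 6.43% of ANXA2, and A549-GFP replicate 2 is lowest on every axis.

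S100A11, the partner of ANXA1, had from 1313 to 1624 TPM in all 6 libraries, with a log2 fold change of 0.01 (95% interval -0.35 to 0.36). S100A6 and S100A4, small calcium-binding proteins that several annexins bind, were higher in A549-GFP replicate 2 than elsewhere in its line, at 6236 and 2309.7 TPM, and overlapped between the lines. PDCD6 and SRI had log2 fold changes of -0.01 and 0.18. Of the 14 genes of the S100 and EF-hand list, 11 were tested, and S100A9, at a log2 fold change of -0.83 (limma adjusted p = 0.994), was the gene with an unadjusted p-value under 0.05. Of all genes, 0.88% had one with a lower mean in A549-TIPARP cells.

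The formyl peptide receptors FPR1, FPR2 and FPR3, through which secreted ANXA1 signals, were at the floor in all 6 libraries. PLA2G4A, the cytosolic phospholipase A2 that ANXA1 is known to restrain, measured 92.1, 109 and 72.5 TPM with GFP and 55.6, 54.4 and 62.6 TPM with TIPARP. Every A549-TIPARP library was below every A549-GFP library, with a log2 fold change of -0.64 (95% interval -1.09 to -0.19, limma adjusted p = 0.895). PLA2G4A was the gene under an unadjusted p-value of 0.05 among the 4 tested genes of its list of 10, where 0.88% of all genes were under it with a lower mean. The median difference of these 4 genes was -0.19, and it was 0.23 without A549-GFP replicate 2, -0.40 when replicate 1 of that line was left out and -0.42 when its replicate 3 was. In the plasminogen list, 9 of 11 genes were tested and 0 were under 0.05 by either p-value. PLAU and PLAUR, the urokinase protease and its receptor, reached 116 and 111 TPM in A549-GFP replicate 2 and at most 57.5 and 40.8 TPM in the other libraries. PLAT was not above 1.06 TPM and PLG not above 2.43 TPM in any library.

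In the list of plasma membrane repair, 18 of 24 genes were tested, and 2 had an unadjusted p-value under 0.05, both with a higher mean in A549-TIPARP cells, as in 2.97% of all genes. They were CAV1 and CAVIN1, which build caveolae, with log2 fold changes of 0.60 (limma adjusted p = 0.966) and 0.40 (limma adjusted p = 0.994). Of the 13 tested genes of phosphatidylserine exposure and flipping, ATP8B2, a lipid flippase, and PLSCR3, a scramblase family member, were under 0.05 unadjusted, with log2 fold changes of 0.68 and 0.54, against the same 2.97% of all genes. None of these 4 genes had an adjusted p-value under 0.05. The 6 tested copines, another family of calcium-dependent phospholipid-binding proteins, had no gene under 0.05 by either p-value. All A549-TIPARP libraries were above all A549-GFP libraries for 4 of 18 repair genes, 2 of 13 phosphatidylserine genes and 2 of 6 copines. The same held for 1 of 9 plasminogen genes, 0 of 11 S100 and EF-hand genes, 3 of 10 annexins and 5.36% of all genes. The median difference of the repair genes was 0.03, that of the phosphatidylserine genes 0.04 and that of the copines 0.01, where the annexins stood at 0.33 and all genes at -0.07. Without A549-GFP replicate 2 these medians were 0.19, 0.09 and 0.18, against 0.29 for the annexins and 0.05 for all genes, and that of the plasminogen list was 0.28. Without A549-GFP replicate 3 the repair, phosphatidylserine, copine and plasminogen medians were -0.10, -0.06, -0.06 and -0.11, against 0.38 for the annexins and -0.17 for all genes.

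**Figure D4:**
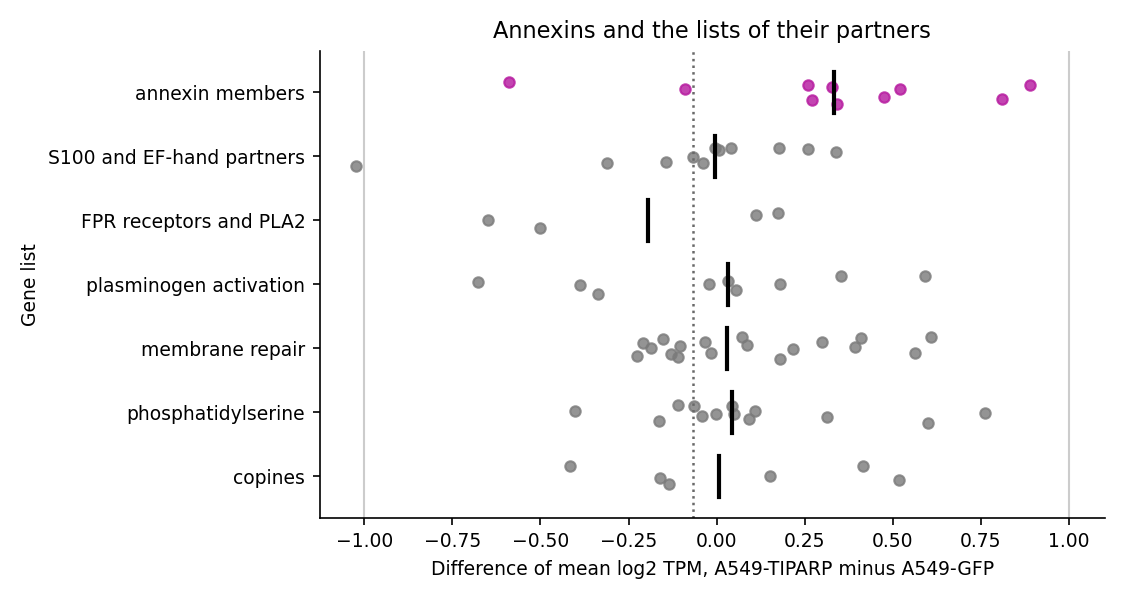
Difference of mean log2 TPM, A549-TIPARP minus A549-GFP, for each tested gene of the annexins (magenta) and of 6 lists of partners and related genes (grey), with the median of a list as a black bar, the median of all genes as a dotted line and 2-fold as light lines. With all 6 libraries the median of the annexins is 0.33, and the medians of the S100 and EF-hand, plasminogen, repair, phosphatidylserine and copine lists lie between -0.01 and 0.04.

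A promoter window of each of ANXA4, ANXA5 and ANXA6 is shown because these annexins did not overlap between the lines, and TIPARP is known as a repressor of the aryl hydrocarbon receptor, whose core site is GCGTG. Each runs from 250 bases before to 50 after the start of a transcript in RefSeq (GRCh38.p14), 5′ to 3′ on the strand of the gene, and capitals mark GCGTG on either strand. They lie at chr2:69643558-69643857 on the plus strand (ANXA4), chr4:121696931-121697230 on the minus strand (ANXA5) and chr5:151157730-151158029 on the minus strand (ANXA6). The ANXA4 window ends before the GENCODE span of the gene, which begins at 69644425, so the 2 sources place this start differently.
ANXA4: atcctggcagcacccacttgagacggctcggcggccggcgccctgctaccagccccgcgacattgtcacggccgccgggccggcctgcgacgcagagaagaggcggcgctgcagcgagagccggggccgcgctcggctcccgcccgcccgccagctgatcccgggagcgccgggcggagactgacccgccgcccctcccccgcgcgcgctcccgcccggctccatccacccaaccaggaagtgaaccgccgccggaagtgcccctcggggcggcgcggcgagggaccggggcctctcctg
ANXA5: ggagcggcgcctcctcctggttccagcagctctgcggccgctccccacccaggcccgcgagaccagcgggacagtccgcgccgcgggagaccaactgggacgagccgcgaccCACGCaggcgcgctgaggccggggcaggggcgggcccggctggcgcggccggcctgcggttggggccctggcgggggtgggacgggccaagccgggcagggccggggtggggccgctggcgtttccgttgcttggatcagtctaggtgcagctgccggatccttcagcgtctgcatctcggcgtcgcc
ANXA6: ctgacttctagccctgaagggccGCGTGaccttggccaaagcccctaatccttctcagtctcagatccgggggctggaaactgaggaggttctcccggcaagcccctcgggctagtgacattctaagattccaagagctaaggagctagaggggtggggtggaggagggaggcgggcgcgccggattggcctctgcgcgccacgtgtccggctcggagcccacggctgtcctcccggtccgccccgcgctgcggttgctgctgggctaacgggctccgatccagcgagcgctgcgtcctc
GCGTG was found once in each of the ANXA5 and ANXA6 windows and not in that of ANXA4. RefSeq gives a second window for ANXA4, at chr2:69741884-69742183, which also held no GCGTG, and for ANXA6, at chr5:151141635-151141934, which held it at 2 places. Of the 14 promoter windows of the 10 annexins, 6 (42.9%) held it, against 36.5% of all 35116 promoter windows. The 6 belong to ANXA2, ANXA5, ANXA6 and ANXA11, with more than 1 window each for ANXA6 and ANXA11. The annexin windows differed in base composition, from no CpG in ANXA1 and ANXA10 to 44 CpG in ANXA4. Their median was 24 CpG and 65.3% G and C, against 14 CpG and 58.7% over all windows. GCGTG itself holds a CpG.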

How the data were processed

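RNA of A549-GFP and A549-TIPARP cells was sequenced in 3 libraries per line. Per the study's methods, Strand NGS aligned the reads, sequenced from both ends, to human transcripts of hg38, and the authors deposited log2 TPM values per gene, without read counts. The lowest deposited value is 0 on the log2 scale, and values at it are called the floor (1 TPM). Sequencing depth is unknown, so no counting intervals are given. Libraries were grouped by their titles. Following the filter of the study, genes that exceeded 2 TPM in 1 or more of the 6 libraries were tested with limma 3.58.1 in R 4.3.3 on log2(TPM + 1), with a variance trend, no block and Benjamini-Hochberg adjustment over all 13181 genes. A pseudocount of 1 lowers the fold changes of low genes. Folds between means and the count past 2-fold use the deposited log2 values. The script was tested on simulated data.

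The members, lists and tests were chosen with earlier results of these data known. Named genes are all members, TIPARP, other annexin entries, fixed partners and, from each other list, at most 3 genes in each direction with an unadjusted p-value under 0.05. Gene positions, exons and coding sequences are those of GENCODE 44, promoters those of RefSeq, matched by symbol for all 10 members, and ANXA2 was aligned with Biopython 1.88. Protein sequences were not used here. Without counts, edgeR and DESeq2 could not be run. Alternatives were 0.1 TPM or no pseudocount, a filter of 2 TPM in 3 or more libraries or none, median-ratio rescaling, no trend, a replicate block, arithmetic means, a fold of 1.5 and each library left out. The result of 1 marker gene is not reported here.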

Additional observations from a re-analysis of the deposited data

How the results depend on the processing

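No annexin and no gene of the partner lists had a limma adjusted p-value under 0.05 in any of the 13 alternatives run for them. Annexins with an unadjusted p-value under 0.05 numbered 3, and from 1 to 4 when a library was left out, and ANXA4 was among them each time. The share of all genes under 0.05 in either direction, 3.85% with all libraries, moved from 1.92% without A549-TIPARP replicate 1 to 10.5% without A549-GFP replicate 2. With a fold threshold of 1.5 in place of 2, 3 annexins passed (ANXA4, ANXA6 and, through its value in A549-GFP replicate 2 alone, ANXA10), as did 8.72% of all genes, and when a library was left out from 0 to 1 was past 2-fold, ANXA4 without A549-GFP replicate 1 or A549-TIPARP replicate 2 (3.62% and 2.7% of all genes) and ANXA6 without A549-GFP replicate 3 (3.53% of all genes). Leaving a library out cannot lower the number of annexins whose libraries do not overlap. It ran from 3 to 5 with each library left out (5 without A549-TIPARP replicate 3, where 13.5% of all genes did not overlap in either direction). Without A549-GFP replicate 2 it was 3, against 27.7% of all genes, and without A549-GFP replicate 3 it was 4, against 30.7%. After median-ratio rescaling it was 4 (1586 of 13181 genes). With all 6 libraries 8.91% of all genes did not overlap, and with 1 left out from 11.7% to 30.7%. The log2 fold change of ANXA1 ranged from -0.063, without A549-GFP replicate 2, to 0.56, and that of ANXA2 from 0.15 to 0.74. That of ANXA10 was 0 without A549-GFP replicate 2, where all values are at the floor. The other annexins kept their direction in all alternatives, with ANXA4 between 0.71 and 1.05, ANXA5 between 0.38 and 0.54, ANXA6 between 0.45 and 0.998 and ANXA7 between -0.17 and -0.0068. Summing ANXA2 with its 3 pseudogene entries gave 0.52, as before.

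The log2 fold change of TIPARP was 3.90 without a filter (adjusted p = 0.0965) and under a replicate block on the experiment number (adjusted p = 0.513). It lay between 3.54 and 4.24 when a library was left out, where the adjusted p-value ran from 0.0331 to 0.192. Libraries that share a number deviated from their lines with a correlation over genes of 0.415, -0.486 and -0.358 in experiments 1, 2 and 3. Pairs with different numbers ran from -0.618 to 0.597. Deviations from the mean of 3 libraries depend on each other, so these correlations cannot tell whether an experiment was shared. With the replicate block 0 annexins had an adjusted and 3 an unadjusted p-value under 0.05, the same number as without it, where 1 and 414 of all 13181 genes had one, against 2 and 508 without the block. The cause of these shifts was not tested. TPM keeps no depth, so low genes such as ANXA9 and ANXA10 have an unknown counting error.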

Other observations

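Other annexin entries of the tables were not among the 10 members. ANXA13, known from intestinal and kidney epithelium, measured 95.8, 141 and 109.5 TPM with GFP and 94.2, 72.5 and 150.4 TPM with TIPARP, so it was at the level of ANXA3 and ANXA7 and overlapped between the lines. ANXA8 and ANXA8L1, near-identical copies whose reads may be divided between the entries, had from 6.94 to 24.3 and from 5.75 to 17.5 TPM. Their log2 fold changes were 0.56 and 0.43, with a limma adjusted p-value of 0.994 for both, and both overlapped between the lines.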
